A study of Rattus norvegicus with 24 samples.

Results

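The genes that present antigens on the cell surface were followed through 24 Illumina arrays of rat dorsal striatum, a forebrain region that receives dense dopamine input. They were taken as every probe whose gene symbol was Cd74, B2m, Tap1 or Tap2 or began with RT1-, the name of the rat major histocompatibility complex (MHC). That rule gave 39 of the 13337 named genes of the array, 30 of class I and 9 of class II, with 1 probe each among 22523 probes. No probe annotated as RT1-Bb was used here. A probe was tested when it was called above background (detection p under 0.05) on 6 or more arrays. This held for 10354 probes, among them 12 of class I and 7 of class II.

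All tissue came from male Sprague-Dawley rats, described in the labels by body weight, with no age given. METH rats had given themselves methamphetamine, a psychostimulant, for 8 d, each injection being 0.1 mg/kg and each session 15 h long, and the yoked saline rats served as controls. The 4 groups of 6 arrays were saline and METH 2 h after the last session, both on slide 1, and saline and METH 24 h after it, with 3 arrays of each on slide 2 and on slide 3. When the saline rats were killed is not labelled, and rats killed after 1 month were not analysed here. Since the times were labelled as different groups of animals, each array was taken as 1 rat, though pooling is not mentioned either way.

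MHC class I molecules hold peptides made inside the cell and show them to CD8 T cells. Their heavy chains, here the RT1-A, RT1-CE, RT1-M, RT1-S and RT1-T genes, pair with beta-2 microglobulin (B2m), and Tap1 and Tap2 form the transporter that carries peptides to them. Class II molecules show peptides from engulfed material to CD4 T cells. RT1-Da, RT1-Ba and RT1-Db1 encode class II chains, Cd74 the invariant chain that guards their groove, RT1-DMa and RT1-DMb the helper that exchanges the guard for a peptide, and RT1-DOa a chain of the DM inhibitor. In healthy brain tissue class II is scarce and known mainly from microglia and from macrophages at the brain's borders.

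The start of transcription of class II genes is known for a shared set of boxes, the X and Y boxes, read by regulatory factor X, NF-Y and the co-activator Ciita, while class I genes also carry kappaB and interferon-response elements. To show where such elements lie, in 4 members picked after their values were seen, promoters from RefSeq (build GRCr8, 250 bases before to 50 bases after the start) were searched on both strands. The motifs were the Y box CTGATTGG, an X box core AACNGATG, a cyclic AMP element TGACGTCA, a kappaB core GGGGATTCC and an interferon-response core GAAANNGAA. In the sequences below, capitals mark a match, and all read 5′ to 3′ toward the gene. RT1-Da lies at chr20:4515165-4515464, RT1-Ba at chr20:4576807-4577106, B2m at chr3:129549080-129549379 and RT1-A1 at chr20:4906959-4907258, each on the plus strand.
RT1-Da: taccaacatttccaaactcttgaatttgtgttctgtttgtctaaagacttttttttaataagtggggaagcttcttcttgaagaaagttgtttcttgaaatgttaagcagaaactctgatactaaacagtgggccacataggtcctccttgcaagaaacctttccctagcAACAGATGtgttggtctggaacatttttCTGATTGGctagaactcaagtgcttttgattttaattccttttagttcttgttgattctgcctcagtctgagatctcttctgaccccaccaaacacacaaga
RT1-Ba: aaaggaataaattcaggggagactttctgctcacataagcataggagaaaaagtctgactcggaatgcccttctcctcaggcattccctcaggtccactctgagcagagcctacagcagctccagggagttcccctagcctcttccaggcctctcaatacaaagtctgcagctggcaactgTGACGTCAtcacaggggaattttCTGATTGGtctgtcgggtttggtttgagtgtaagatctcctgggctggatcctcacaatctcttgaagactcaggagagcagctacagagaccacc
B2m: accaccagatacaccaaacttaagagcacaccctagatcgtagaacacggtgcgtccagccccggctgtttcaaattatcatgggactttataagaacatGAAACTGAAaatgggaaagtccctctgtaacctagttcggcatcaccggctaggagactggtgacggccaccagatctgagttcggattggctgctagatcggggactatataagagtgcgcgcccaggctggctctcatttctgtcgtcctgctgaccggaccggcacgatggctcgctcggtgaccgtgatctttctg
RT1-A1: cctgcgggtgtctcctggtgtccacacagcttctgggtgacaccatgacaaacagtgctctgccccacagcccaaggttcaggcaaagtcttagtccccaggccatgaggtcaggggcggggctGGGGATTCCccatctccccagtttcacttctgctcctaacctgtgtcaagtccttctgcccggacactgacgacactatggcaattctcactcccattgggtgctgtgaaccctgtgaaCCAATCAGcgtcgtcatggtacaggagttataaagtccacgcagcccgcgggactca

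In RT1-Da the X box core began 80 bases before the start and the Y box 52 bases before it. RT1-Ba held the cyclic AMP element 69 bases and the Y box 46 bases before the start. B2m held an interferon-response core 150 bases before the start. RT1-A1 held the kappaB core 126 bases before the start and a Y box, on the other strand, that began 7 bases before it. The same elements began 174 and 56 bases before the start in RT1-A2, and 170 and 51 bases before it in RT1-A3. These distances depend on where the start of each gene is annotated. Elements with other spellings were not searched for and are not marked. The matches in the 4 printed promoters did not overlap each other.

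A promoter was found for 35 of the 39 members. Among 8 class II promoters, 5 held the Y box (RT1-Ba, RT1-DOa, RT1-Da, RT1-Db1 and RT1-Ha), against 3.5% of all 33469 promoters of that length. The X box core was in 3 of the 8 (RT1-DOb, RT1-Da and RT1-Db1), against 2.58%, and the cyclic AMP element in 1, against 1.83%. Of 27 class I promoters, 10 held the Y box, 7 the kappaB core, against 0.281% of all promoters, and 6 the interferon-response core, against 9.71%. The X box core and the cyclic AMP element matched in 0 of the 27, and the kappaB and interferon-response cores in 0 of the 8 class II promoters. The Cd74 promoter held none of the 5 motifs as spelled here. Several class I promoters share long stretches, among them those of RT1-A1, RT1-A2 and RT1-A3, so their matches are not independent. These counts describe letters in a window and do not show binding. They cover only the spellings given above, so a promoter without a match, of either class, may still hold an element of that kind.

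Levels are given as log2 of the background-corrected, quantile-normalised signal, with an offset of 16 that makes the changes of dim genes look smaller than they were. A change is the METH mean minus the saline mean of the same slides on that scale. The median intensity per array was 8.3 to 17.9 and 8208 to 10306 probes were detected, with the lower counts on slide 1 (8208 to 9428). The residual SD of a probe was 0.247 on slide 1 and 0.174 on slides 2 and 3. In bulk tissue, fewer cells of a type and less RNA per cell cannot be told apart. RT1 class I genes are near copies of each other, so a probe named for one may also bind transcripts of another, and their single values are uncertain.

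Background set a limit on what could be seen. Of the 9 class II probes, 2 (RT1-DMa and RT1-DMb) were detected on all arrays and 2 (RT1-DOb and RT1-Ha) on no array. Of the 30 class I probes, 5 were detected on all arrays and 13 on none, namely Tap2, RT1-CE5, RT1-CE10, RT1-CE11, RT1-CE13, RT1-M1-2, RT1-M1-4, RT1-M4, RT1-M5, RT1-N3, RT1-O1, RT1-S2 and RT1-T24-2. The remaining 5 class I probes that did not enter the tests, RT1-T24-1, RT1-T18, RT1-CE2, RT1-CE16 and RT1-CE1, were detected on 1 to 5 arrays. Of the tested members, 3 reached 6 arrays only with those of METH at 24 h: RT1-Ba was detected on 2 of the other 18 arrays, RT1-CE15 on 4 and RT1-DOa on 4. RT1-Ba entered the tests through the group in which it was high, so nothing is drawn from its place in a count, and counts at 24 h are also given for the other 16, a choice made after seeing the data.

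At 24 h the levels of Cd74 and RT1-Da were spread widely among METH rats, with the highest arrays far above saline and the lowest among saline. The Cd74 levels of the METH arrays were 6.54, 7.38 and 5.68 on slide 2 and 4.96, 6.74 and 5.34 on slide 3. Those of saline were 5.17, 5.76 and 5.13 on slide 2 and 5.08, 5.17 and 5.18 on slide 3. METH replicates 1, 2 and 5 lay above every saline array, and replicate 4 lay below all of them, so the groups overlapped. The mean change was 0.86 ± 0.25 (SE, n = 6 per group), a 1.81-fold difference with a 95% interval of 0.35 to 1.37 on the log2 scale. Its p ranked 16 of 10354 in limma, and its adjusted p was 1. The SE, interval and p here, as for all members, come from 1 spread per gene estimated over all 24 arrays. For Cd74 the SD was 0.93 in METH at 24 h and 0.22 to 0.34 in the other groups. The error of its 24 h change may therefore be understated. With an offset of 50 the change was 0.57. Cd74 was detected on 5 METH and 4 saline arrays.

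RT1-Da, the class II alpha chain that pairs with RT1-Db1 and matches human HLA-DRA, had the same leading arrays. Its METH levels were 6.73, 7.55 and 5.71 on slide 2 and 5.54, 6.88 and 6.19 on slide 3. The saline levels were 5.39, 5.63 and 5.42 on slide 2 and 5.42, 5.77 and 6.07 on slide 3. Here 4 METH arrays lay above every saline array and the other two lay within the saline range. The change was 0.81 ± 0.27 (SE), or 1.76-fold, with an interval of 0.25 to 1.37 and an adjusted limma p of 1. The SD of RT1-Da was 0.77 in METH at 24 h and 0.27 to 0.50 in the other groups, so this error may be understated too.

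RT1-Ba, an alpha chain of the class that includes human HLA-DQA, lay close to background. METH levels were 5.49, 5.76 and 5.25 on slide 2 and 4.93, 5.45 and 5.04 on slide 3, and saline levels were 4.68, 4.98 and 4.94 and then 4.90, 4.98 and 5.42. All METH arrays of slide 2 exceeded the saline arrays of that slide, while on slide 3 the groups overlapped. The change was 0.34 ± 0.14 (SE), with an interval of 0.05 to 0.63 and an adjusted limma p of 1. With an offset of 50 it was 0.18, and with the authors' deposited log2 values, which have no offset, 1.34. The probe was detected on 4 METH arrays and 1 saline array at 24 h, and on 1 of the 12 arrays of slide 1, so it passed the detection filter only through the METH arrays of 24 h.

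The other class II genes had smaller differences at 24 h. RT1-Db1, a beta chain, averaged 5.39 ± 0.33 (SD, n = 6) in METH and 5.30 ± 0.16 in saline, a change of 0.10 that was -0.03 without METH replicate 2. RT1-DMa averaged 7.04 ± 0.10 in METH and 7.03 ± 0.24 in saline, a change of 0.01 with an interval of -0.23 to 0.25. RT1-DMb differed by 0.04, with an interval of -0.22 to 0.29, and RT1-DOa by 0.05, with an interval of -0.15 to 0.25. The pair of DM genes, bright and detected on all arrays, thus had intervals that end below the mean changes of Cd74 and RT1-Da. The difference between these genes was not itself tested.

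On single arrays these class II genes overlapped between METH and saline at both times. RT1-Db1 ran from 5.08 to 5.97 in METH at 24 h against 5.05 to 5.44 in saline, and 5.01 to 5.44 in METH at 2 h against 5.02 to 5.56 in saline. RT1-DMa ran from 6.91 to 7.19 in METH at 24 h against 6.63 to 7.21 in saline, and 7.44 to 7.77 in METH at 2 h against 7.13 to 7.93 in saline. RT1-DMa averaged 7.54 in saline and 7.60 in METH on slide 1, and 7.03 and 7.04 on slides 2 and 3, where slide and animals cannot be told apart. RT1-DMb ran from 7.37 to 7.75 in METH at 24 h against 7.31 to 7.74 in saline, and 6.99 to 7.67 in METH at 2 h against 6.94 to 7.58 in saline. RT1-DOa ran from 5.06 to 5.35 in METH at 24 h against 4.95 to 5.23 in saline, and 5.02 to 5.28 in METH at 2 h against 4.89 to 5.47 in saline. RT1-DOa was detected on 2 of 6 arrays in 3 of the groups and on 0 METH arrays at 2 h.

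**Figure D1:**
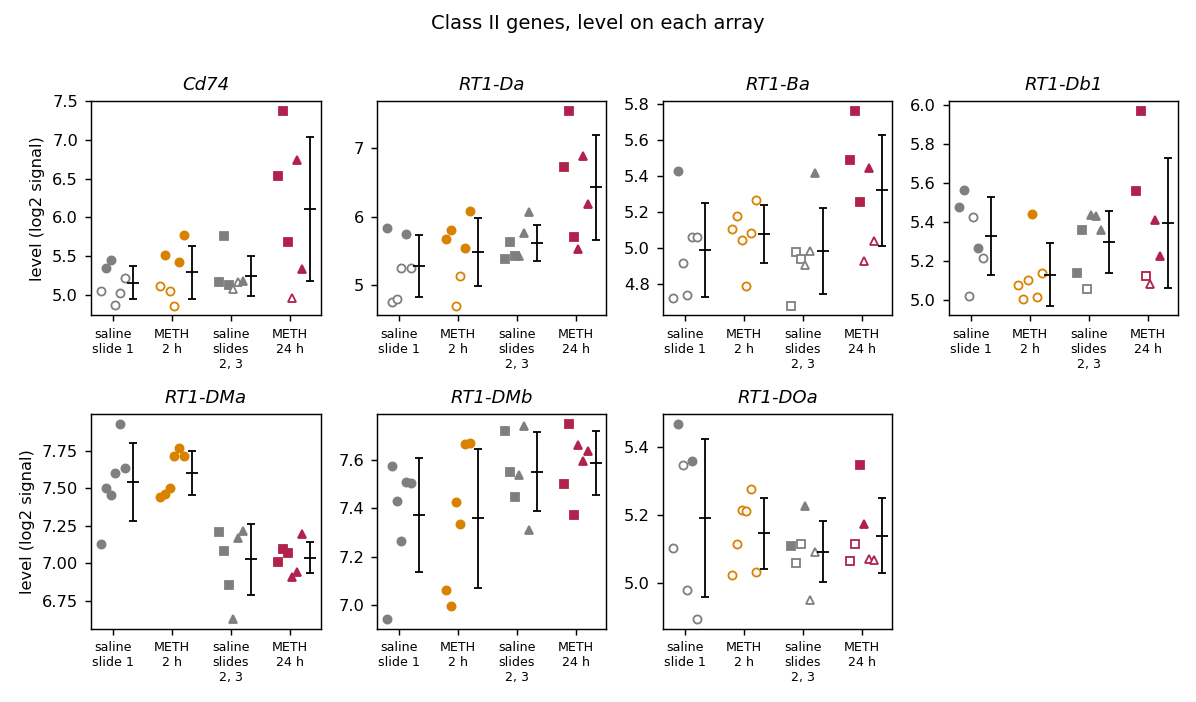
Levels of the 7 tested class II genes, as log2 signal on the vertical axis, on each of the 24 arrays by group. Circles are slide 1, squares slide 2 and triangles slide 3, open symbols are arrays where the probe was not detected, and bars are mean ± SD over 6 arrays. For Cd74 the METH arrays at 24 h run from 4.96 to 7.38 and the saline arrays of the same slides from 5.08 to 5.76.

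Among class I genes at 24 h, B2m and RT1-M10-1 had unadjusted p under 0.05. B2m levels of METH arrays were 11.35, 11.97 and 10.997 on slide 2 and 10.94, 11.43 and 11.34 on slide 3. Those of saline were 10.87, 11.04 and 10.80 on slide 2 and 11.07, 10.997 and 11.01 on slide 3. METH arrays 1, 2, 5 and 6 lay above all saline arrays, and METH arrays 3 and 4 lay within the saline range, as they did for RT1-Da. The change was 0.37 ± 0.15 (SE), or 1.29-fold, with an interval of 0.06 to 0.68 and an adjusted limma p of 1, and it was 0.24 without METH replicate 2. RT1-M10-1 belongs to a family known in the mouse from the vomeronasal organ. Its METH levels were 5.90, 6.50 and 5.41 on slide 2 and 5.87, 6.35 and 5.45 on slide 3, and its saline levels were 5.47, 5.42 and 5.19 and then 5.62, 5.85 and 5.29. It averaged 5.91 ± 0.45 (SD) in METH and 5.47 ± 0.24 in saline, a change of 0.44 with an interval of 0.05 to 0.83 and an adjusted limma p of 1, and 4 METH arrays lay above all saline arrays.

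RT1-A1, a classical class I heavy chain, had the largest mean change among the tested members at 24 h, 1.17, and also the widest error, 0.65 (SE). Its arrays fell at 2 levels in every group, with 11 of the 24 arrays between 4.67 and 5.68 and 13 between 6.74 and 8.20. The upper level held 4 of 6 saline arrays of slide 1, 3 of 6 METH arrays at 2 h, 2 of 6 saline arrays of slides 2 and 3, and 4 of 6 METH arrays at 24 h. RT1-A1 was detected on 4, 3, 3 and 5 arrays of these groups, in that order, so most arrays at its lower level lay below background. Its change at 24 h thus mixes detected and undetected arrays. At 24 h its METH levels were 7.67, 5.02 and 7.83 on slide 2 and 7.35, 8.20 and 5.68 on slide 3, and its saline levels were 7.29, 4.87 and 4.78 and then 5.15, 7.79 and 4.88. METH replicate 2, the highest for Cd74, was the lowest METH array for RT1-A1. The METH mean at 24 h was 6.96 ± 1.29 (SD) and the saline mean 5.79 ± 1.37. The interval of the change was -0.16 to 2.49, and the change was 2.04 with the authors' deposited log2 values.

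RT1-A3 and RT1-A2 were spread more evenly at 24 h. RT1-A3 ran from 7.24 to 7.99 in METH at 24 h and from 6.48 to 7.68 in saline, a change of 0.57 ± 0.31 (SE) with an interval of -0.07 to 1.22. RT1-A2 ran from 6.60 to 9.13 in METH and from 6.48 to 7.85 in saline, a change of 0.35 ± 0.41 (SE). Without METH replicate 2, whose RT1-A2 level was 9.13, that change was 0.02. At 2 h, the 3 METH arrays at the lower level of RT1-A1 were also the 3 lowest METH arrays for RT1-A3, at 5.33, 5.48 and 5.75. This did not hold in every group: at 24 h the METH array lowest for RT1-A3 (7.24) stood at the upper level of RT1-A1 (7.67).

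The remaining class I genes had changes at 24 h between -0.05 and 0.18. These were RT1-M6-2 at 0.18, RT1-T24-4 at 0.17, RT1-S3 at 0.16, RT1-CE7 at 0.11, Tap1 at 0.07, RT1-M3-1 at 0.01 and RT1-CE15 at -0.05. Without METH replicate 2, RT1-M6-2 was at -0.03, RT1-T24-4 at -0.01 and Tap1 at -0.01. Without saline replicate 6, RT1-S3 was at 0.06 and RT1-CE7 at 0.04. For Tap1, the METH mean was 5.82 ± 0.27 (SD) and the saline mean 5.74 ± 0.27, with an interval of -0.20 to 0.34 for the change. RT1-CE15 was the only tested member with a lower METH mean at 24 h, and its saline mean held 1 array at 6.62, while the next highest of that group was 5.34.

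Array by array, the groups of these class I genes overlapped at both times, except for RT1-M3-1 at 2 h. Tap1 ran from 5.55 to 6.26 in METH at 24 h against 5.46 to 6.19 in saline, and 5.96 to 6.32 in METH at 2 h against 5.89 to 6.49 in saline. RT1-S3 ran from 5.98 to 6.82 in METH at 24 h against 5.83 to 6.53 in saline, and 5.53 to 6.41 in METH at 2 h against 5.56 to 6.27 in saline. RT1-CE7 ran from 5.54 to 6.19 in METH at 24 h against 5.52 to 6.21 in saline, and 5.16 to 5.87 in METH at 2 h against 4.92 to 6.03 in saline. At 24 h the highest arrays of METH and saline thus differed little in RT1-CE7. RT1-T24-4 ran from 5.39 to 6.75 in METH at 24 h against 5.38 to 6.44 in saline, and 4.66 to 5.33 in METH at 2 h against 4.71 to 5.61 in saline. RT1-M6-2 ran from 6.57 to 7.93 in METH at 24 h against 6.45 to 7.19 in saline, and 5.57 to 6.43 in METH at 2 h against 5.99 to 6.97 in saline. The single highest array of both RT1-T24-4 (6.75) and RT1-M6-2 (7.93) was METH replicate 2 at 24 h.

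**Figure D2:**
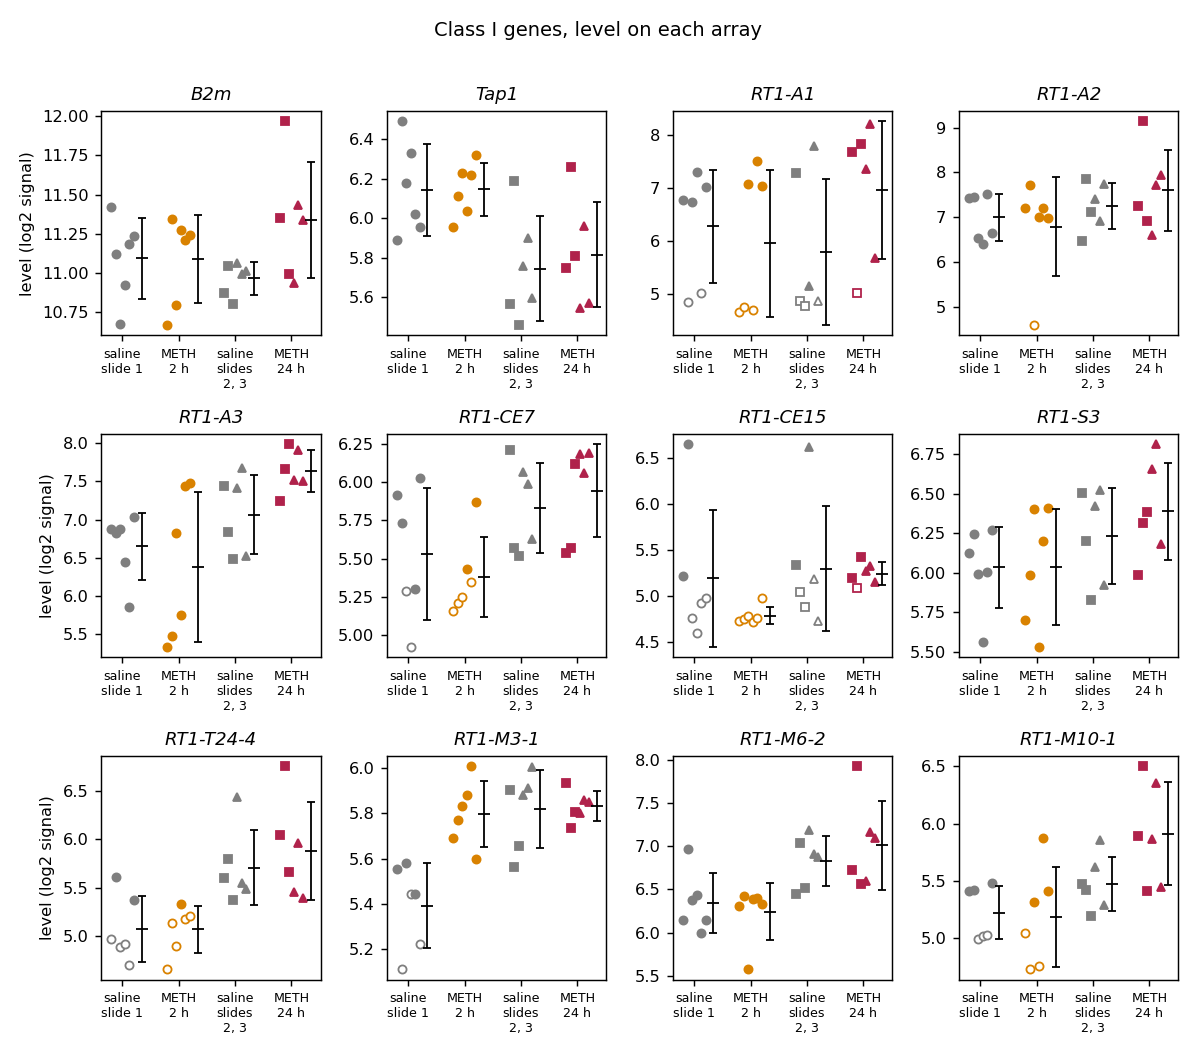
Levels of the 12 tested class I genes, as log2 signal on the vertical axis, on each array by group. Circles are slide 1, squares slide 2 and triangles slide 3, open symbols are arrays where the probe was not detected, and bars are mean ± SD over 6 arrays. RT1-A1 stands at 2 levels in every group, and RT1-M3-1 is higher on all 6 METH arrays at 2 h than on the 6 saline arrays of slide 1.

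Counted over the members, 0 of 19 passed the adjusted threshold of 0.05 at 24 h in limma, where 5 of all 10354 probes (0.0483%) did. At an unadjusted p under 0.05, 3 of 7 class II and 2 of 12 class I genes were higher in METH and 0 were lower. Among the 16 members that reach the detection filter without the METH arrays of 24 h, it was 2 of 5 class II and 2 of 11 class I genes. The same held for 1.09% of all tested probes in the higher direction and 0.85% in the lower. These p-values, and those within slides, use 1 spread per gene from all 24 arrays. The residual SD of a probe was 0.247 on slide 1 and 0.174 on slides 2 and 3. At 24 h the p-values may therefore be too large for many probes. For Cd74 and RT1-Da, whose METH arrays varied more, they may be too small. How far this affects the member counts and the shares was not tested. The median change was 0.10 over the class II genes, 0.18 over the class I genes and 0.00 over all tested probes. Changes were above 0 for 7 of 7 class II genes and 11 of 12 class I genes, against 49.3% of all probes, but RT1-DMa, RT1-DMb and RT1-M3-1 lay below 0 with median scaling, and with the deposited log2 values RT1-DMa lay below 0 and RT1-CE15 above it. Of the 16, changes were above 0 for 5 of 5 class II genes, with a median of 0.10, and for 11 of 11 class I genes, with a median of 0.18. The class I median was 0.08 without METH replicate 2 and 0.30 without saline replicate 4, and the class II median was 0.05 without saline replicate 3 and 0.16 without METH replicate 3. With the groups required not to overlap, 0 of 19 members and 0.0773% of all probes were higher in METH. These members share arrays, so their counts are not independent.

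The comparison was made within each slide, with 3 METH and 3 saline arrays apiece. On slide 2, Cd74 and RT1-Da each differed by 1.18, RT1-Ba by 0.64, B2m by 0.53, RT1-M10-1 by 0.58, RT1-T24-4 by 0.56 and RT1-Db1 by 0.37. These 7 of the 19 members had an unadjusted limma p under 0.05 there, as had 0.918% of all probes in the higher direction. Without RT1-Ba, RT1-CE15 and RT1-DOa it was 6 of 16. On slide 3 the same contrasts were 0.54 for Cd74, 0.45 for RT1-Da, 0.04 for RT1-Ba, 0.21 for B2m, 0.30 for RT1-M10-1, -0.22 for RT1-T24-4 and -0.17 for RT1-Db1. On slide 3, 0 of 19 members had an unadjusted p under 0.05 in the higher direction, against 0.56% of all probes.

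By class, the median on slide 2 was 0.37 for class II and 0.47 for class I, and on slide 3 it was 0.04 and 0.14. RT1-A1 differed by 1.19 on slide 2 (interval -0.72 to 3.10) and 1.14 on slide 3 (interval -0.77 to 3.05). On each slide, METH and saline arrays stood at both of its levels. In a direct test of slide 3 minus slide 2, 0 of 19 members and 0% of all probes passed the adjusted threshold, and 161 probes had an unadjusted limma p under 0.05. The difference was -0.60 for RT1-Ba (interval -1.14 to -0.06), -0.53 for RT1-Db1 (-1.04 to -0.03) and -0.78 for RT1-T24-4 (-1.55 to -0.01), each with an adjusted limma p of 1. These 3 of 19, with an unadjusted p under 0.05, stand against 0.57% of all probes with a smaller effect on slide 3 at that level. Without RT1-Ba, RT1-CE15 and RT1-DOa it was 2 of 16. For Cd74 the difference was -0.64, with an interval of -1.65 to 0.37.

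**Figure D3:**
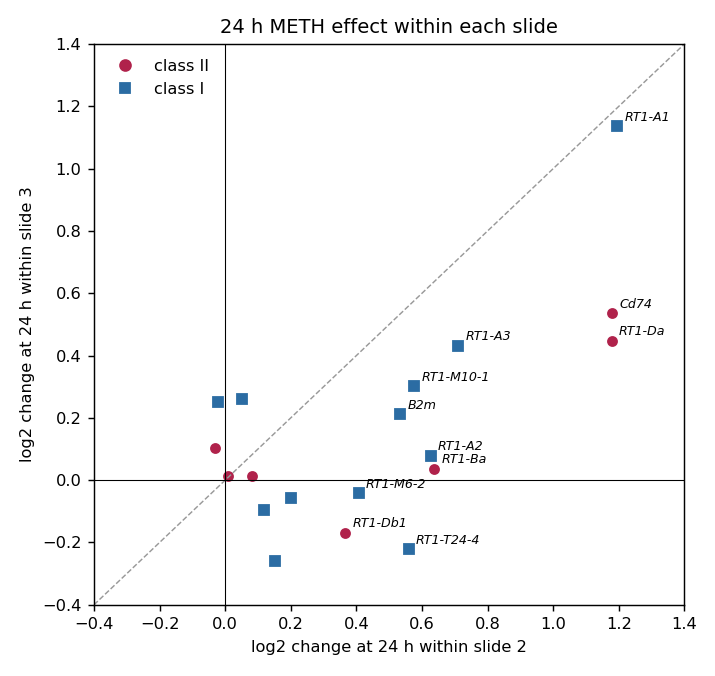
Each point is a tested member, with its METH minus saline log2 change at 24 h within slide 2 on the horizontal axis and within slide 3 on the vertical axis, each from 3 arrays per group. The dashed line marks equal changes. Cd74 and RT1-Da sit at 1.18 on slide 2 and at 0.54 and 0.45 on slide 3. RT1-A1 lies near the line, with an SE of 0.93 on each slide.

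At 2 h the leading members of the 24 h comparison had small differences. Cd74 averaged 5.29 ± 0.34 (SD) in METH and 5.16 ± 0.22 in the saline arrays of slide 1, a change of 0.13 ± 0.25 (SE). RT1-Da differed by 0.21 ± 0.27 (SE) and RT1-Db1 by -0.20 ± 0.13. RT1-Ba was detected on 0 METH arrays and 1 saline array at 2 h, so that no difference could be measured there. B2m averaged 11.09 in both groups, with an SD of 0.28 in METH and 0.26 in saline, and its change was 0.00 with an interval of -0.31 to 0.31. RT1-A1 differed by -0.33, RT1-A3 by -0.27, RT1-A2 by -0.21 and RT1-CE15 by -0.40, and the interval of each included 0. RT1-CE15 was detected on 0 METH arrays and 2 saline arrays there, and its difference was -0.11 without saline replicate 2 of slide 1. Without METH replicate 1, RT1-A1 differed by -0.07 and RT1-A3 by -0.06, and without METH replicate 3 RT1-A2 differed by 0.23.

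RT1-M3-1 had the lowest p of the members at 2 h. Its mouse counterpart, H2-M3, presents peptides with a formyl group at their start. METH levels were 5.69, 5.77, 5.83, 5.88, 6.01 and 5.60, and saline levels were 5.56, 5.11, 5.58, 5.44, 5.44 and 5.22. Every METH array lay above every saline array, by a small margin between 5.60 and 5.58. The change was 0.40 ± 0.10 (SE), or 1.32-fold, with an interval of 0.20 to 0.60 and an adjusted limma p of 0.0927, and the probe was detected on 6 METH and 3 saline arrays. The change was 0.24 with an offset of 50 and 0.75 with the authors' deposited log2 values.

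RT1-M3-1 was the 1 of 19 members whose groups did not overlap at 2 h, METH being higher, as for 0.251% of all probes. It was also the 1 member with an unadjusted p under 0.05, against 4.94% of all probes in the higher direction, so this count is near the background. At the adjusted threshold 0 of 19 members passed, and 7 of all probes did (0.0676%). At 24 h RT1-M3-1 averaged 5.83 ± 0.07 (SD) in METH and 5.82 ± 0.17 in saline, so the METH level at 2 h, 5.80 ± 0.15, was close to both, while the saline arrays of slide 1, 5.39 ± 0.19, were lower. Slides and groups of animals both differ between the saline sets and cannot be told apart.

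The METH effect at 24 h minus that at 2 h was tested as a difference of both effects. Of the 19 members 0 passed the adjusted threshold, as did 0% of all probes, of which 504 had an unadjusted limma p under 0.05. The difference was 0.73 for Cd74 (interval 0.00 to 1.45, adjusted p = 0.989). It was 0.60 for RT1-Da (interval -0.19 to 1.39), 0.38 for B2m (interval -0.06 to 0.82) and -0.39 for RT1-M3-1 (interval -0.68 to -0.11, adjusted p = 0.888). Larger effects at 24 h than at 2 h were estimated for 6 of 7 class II and 11 of 12 class I genes, against 50.3% of all probes. Without RT1-Ba, RT1-CE15 and RT1-DOa it was 4 of 5 and 10 of 11.

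**Figure D4:**
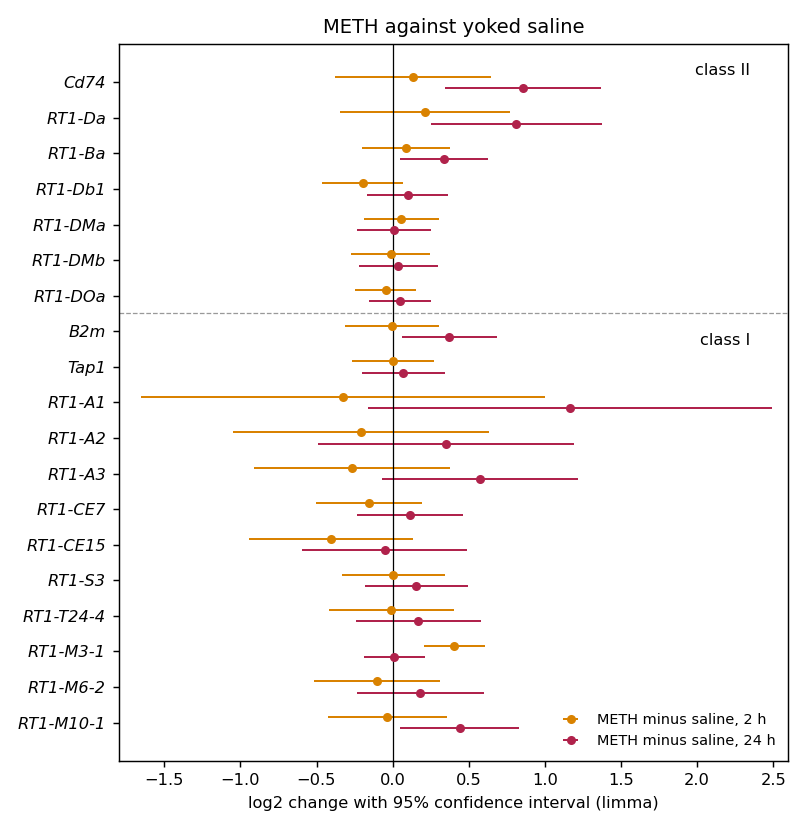
METH minus saline log2 change of each tested member with its 95% confidence interval from limma, at 2 h in orange and at 24 h in red, from 6 arrays per group. Each interval uses 1 spread per gene estimated over all 24 arrays. The intervals of Cd74 (0.35 to 1.37) and RT1-Da at 24 h lie above 0, as does that of RT1-M3-1 at 2 h, and the interval of RT1-A1 is the widest.

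Over the 12 arrays of slides 2 and 3, with each slide centred, the gene most like Cd74 among 7359 was RT1-Da (Pearson r = 0.954). It was followed by B2m (0.919), the complement gene C2 (0.909), the Fc receptor chain Fcer1g (0.907) and Laptm5, a lysosomal protein (0.902). Fcer1g and Laptm5 are on the list of microglia markers used below. RT1-M10-1 ranked 13 (0.867) and RT1-Ba 20 (0.855), while RT1-DMa ranked 3243 (0.0352). RT1-Ba passed the detection filter only through the METH arrays of 24 h, which are among those correlated here, so nothing is drawn from its rank. The genes most like B2m were RT1-Da (0.944), C2 (0.940), Ucp2 (0.930), Cd74 (0.919) and the interferon gamma receptor chain Ifngr1 (0.911). These correlations include the METH and saline difference and share arrays, and they describe 12 arrays.

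On the 12 arrays of slide 1 this order was absent. The 5 genes most like Cd74 there were Naprt (0.944), Unc13d (0.902), Echs1, Ssh3 and Oxsr1, with RT1-Da at 0.273 and B2m at 0.128. Those most like B2m were Pdxk (0.879), Mrpl47, Sparc, Pik3c3 and Tarbp2. Cd74 spanned 4.86 to 5.78 on that slide, near background, and was detected on 5 of its 12 arrays. On slides 2 and 3, METH replicate 2 was the highest of the 12 arrays for 5 of 7 class II genes, RT1-Ba among them, and 6 of 12 class I genes. How often that array was the highest over all probes was not counted, so this may not be particular to the members. Its limma quality weight, 0.688, was the lowest of those 12 arrays.

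Of these arrays, METH replicates 2 and 5 also led in markers of microglia. That list had 16 genes, 13 of them with a probe and 12 tested, and Ptprc was detected on no array. At 24 h 11 of 12 had a change above 0, 5 of them with an unadjusted limma p under 0.05 (C1qb 0.54, C1qa 0.51, Fcer1g 0.44, Tyrobp 0.37 and Aif1 0.35), and 0 passed the adjusted threshold. Over all tested probes, 49.3% had a change above 0 and 1.09% were higher at that unadjusted level. At 2 h, 1 of the 12 was higher (C1qc 0.48) and 1 lower (Laptm5 -0.25) with an unadjusted p under 0.05, and 0 passed the adjusted threshold. At 24 h Cx3cr1, P2ry12 and Tmem119, markers of resting microglia, differed by -0.09, 0.14 and 0.15. The rest of the list, Trem2, Laptm5, Itgam and C1qc, differed by 0.03, 0.16, 0.23 and 0.43 at 24 h. The summed linear signal of the list ran from 1793 to 2694 in saline and from 2237 to 4143 in METH. It was highest on METH replicate 2 (4143) and then on replicate 5 (3465), the arrays with the highest Cd74. Of 8 endothelial genes, markers of vessel walls, 6 had a probe and 4 were tested (Cldn5, Tek, Esam and Vwf), and at 24 h all 4 had a change above 0, 0 of them with an unadjusted p under 0.05. Their summed signal ran from 923 to 1355 in saline and from 1115 to 1626 in METH, again highest on METH replicate 2. The part of these markers in the Cd74, RT1-Da and B2m values was not tested.

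**Figure D5:**
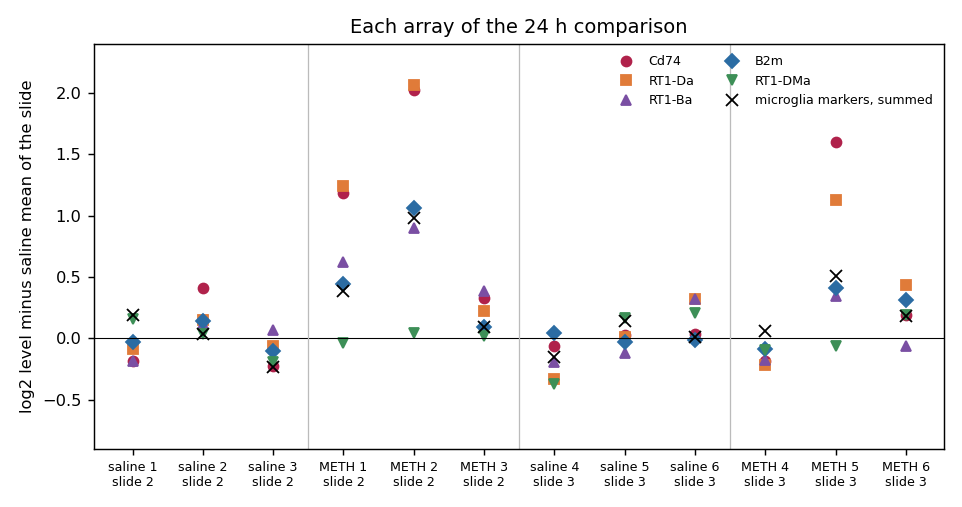
Levels on the 12 arrays of slides 2 and 3, as log2 level minus the saline mean of the same slide, for Cd74, RT1-Da, RT1-Ba, RT1-DMa, B2m and the summed microglia markers. METH replicates 1, 2 and 5 stand highest for Cd74 and RT1-Da, and RT1-DMa stays near 0 on them.

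Most markers of other immune cells lay below background. None of the 13 genes of the T and NK cell list, 11 with a probe, entered the tests, and 8, including Cd3d, Cd3g, Cd8a and Lck, were detected on no array. Of 6 B cell genes only Blnk was tested, and Ms4a1 and Pax5 were on no array. The macrophage markers Cd163, Mrc1, Lyve1 and Ms4a7 and the dendritic cell markers Flt3, Zbtb46, Xcr1, Clec9a and Batf3 were likewise detected on no array. The macrophage genes tested were 2 of 8, Pf4 and F13a1, which differed at 24 h by -0.03 ± 0.15 (SE) and 0.08 ± 0.13. Those of dendritic cells were 2 of 8, Ccr7 and Clec10a, which differed by 0.00 ± 0.12 (SE) and -0.03 ± 0.12. At 2 h Ccr7 differed by -0.30 ± 0.12 (SE, adjusted p = 0.437). Haemoglobin transcripts moved the other way: 4 of 6 tested genes of the red blood cell list fell at 24 h with an adjusted limma p under 0.05 (Hbb-b1 by 1.79), and their list's summed signal was 7336 to 19089 in saline and 2235 to 5903 in METH. Their part in the member values was not tested. Of 9 markers of striatal projection neurons, 8 had a probe and all 8 were tested. At 2 h, 5 of the 8 (Pde10a -0.54, Drd1 -0.38, Drd2 -0.33, Rgs9 -0.32 and Adora2a -0.24) were lower in METH with an unadjusted limma p under 0.05, against 4.3% of all probes, and 0 passed the adjusted threshold. Their median change was -0.29, and the list's summed signal was 36044 to 40599 in saline and 28042 to 35213 in METH. At 24 h the median was 0.06 and 0 of 8 had an unadjusted p under 0.05. The part of this difference in the member values at 2 h was not tested. Of 5 astrocyte and 6 meningeal genes, 4 each were tested, and 0 had an unadjusted p under 0.05 at 24 h. At 2 h Gfap differed by 0.44 ± 0.19 (SE, adjusted p = 0.472) and Igf2 by -0.93 ± 0.35 (SE, adjusted p = 0.346). Of 7 neutrophil and monocyte genes, 6 with a probe, 0 were tested. Of 5 choroid plexus genes only Ttr was tested, and it varied widely between arrays. At 24 h its signal was 204 to 5070 in saline and 69.3 to 6678 in METH. It differed by -1.53 ± 1.12 (SE) at 2 h and -1.33 ± 1.12 at 24 h (slide 2 -2.32, slide 3 -0.33). The part of such tissue in the member values was not tested.

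Other genes of the pathway showed few differences. Of 12 genes that load or cut class I peptides, 9 were tested and 0 had an unadjusted limma p under 0.05 at 24 h. At 2 h, the immunoproteasome subunit Psmb10 differed by 0.37 ± 0.16 (SE, adjusted p = 0.449). Of 12 genes that process class II antigens, 9 were tested and 8 had a change above 0 at 24 h, against 49.3% of all probes. Ifi30, a lysosomal thiol reductase that opens disulphide bonds of antigens, was the 1 of these 9 with an unadjusted limma p under 0.05. Over all probes 1.09% were higher at that level. The change of Ifi30 was 0.41 ± 0.15 (SE, adjusted p = 1), and it differed by 0.35 on slide 2 and 0.46 on slide 3.

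Ciita, the co-activator of class II genes, was detected on no array, nor were Rfxap, Nfya, Creb1, Irf2, Irf8 and Spi1. Of 20 regulators 9 were tested, and at 24 h 0 had an unadjusted p under 0.05. At 2 h, Rfxank, a subunit of regulatory factor X, differed by -0.43 ± 0.13 (SE, adjusted p = 0.217) and the kinase Jak1 by 0.27 ± 0.12 (SE, adjusted p = 0.488). On the T cell and co-stimulation side, Icam1 was the 1 of 9 genes tested, and Cd4, Cd8a, Cd8b, Cd80, Cd86, Cd40 and Lag3 were on no array. Of 8 class I relatives outside RT1, 3 (Fcgrt, Hfe and Mr1) were tested, and 0 had an unadjusted limma p under 0.05 at either time.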

How the data were processed

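Transcripts were measured on RatRef-12 BeadChips, 1 array per sample. The authors deposited probe intensity, which the file header calls raw, already background-subtracted since 26.4% to 31.7% of an array's values lie below 0. The detection p-value columns the authors deposited stand in another probe order (rank correlation with intensity -0.0136 to -0.00495), so sorted scores, read as 1 minus p, were assigned to sorted intensities, and 1 missing score was set to its array's median. The deposited log2 table, an alternative here, matched log2 of the deposited intensity (values under 1 set to 1) after subtraction of a probe median, to within 2.17e-06. Their software was not given in the sources used here.

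In R 4.3.3 with limma 3.58.1, neqc (normexp, offset 16, quantile normalization) was followed by 1 lmFit and eBayes fit of all 24 arrays with group means and a slide 3 term. A second fit with group and slide means gave the effects within slides. P-values of the 10354 probes tested were adjusted by Benjamini-Hochberg at 0.05. The calculation was checked on simulated data. Replicate numbers follow the order in which samples are listed and only name arrays. Array correlations were 0.922 to 0.991, and 0 pairs were identical. The number of arrays limits the precision. Symbols came from the platform annotation, updated through RefSeq (13757 of 13793 named probes matched). All members are named, with genes of the 5 pathway lists past an unadjusted p of 0.05 (marker lists are given by counts, with genes named after their values were seen) and the 5 genes most like Cd74 or B2m. The members and lists were chosen with earlier results of these data known. Alternatives changed the fit, scaling, offset, filter, weights, slide term and arrays left out.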

Additional observations from a re-analysis of the deposited data

Results flagged for a closer look

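Of 76 gene and group combinations of 6 arrays, 7 had a single array set apart from the rest by more than Dixon's 95% criterion allows, where chance gives about 1 in 20. RT1-CE15 gave 3 of them. It stood at 6.657 on saline replicate 2 of slide 1 (next highest 5.221), at 6.617 on saline replicate 4 of slides 2 and 3 (next 5.337), and at 4.977 on METH replicate 6 at 2 h (next 4.786), the last below background. RT1-A2 was 4.598 on METH replicate 3 at 2 h, not detected there, with the next lowest at 6.988. RT1-M6-2 was lowest on the same array, at 5.572 against 6.31. RT1-Db1 was 5.438 on METH replicate 4 at 2 h, where the next highest was 5.136. Cd74 was 5.763 on saline replicate 2 of slides 2 and 3, against 5.179 for the next, so the highest saline level in the 24 h comparison rests on 1 array.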

How the results depend on the processing

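Over 773 recomputed member values, 704 kept their direction with 0 passing or losing the adjusted threshold, and 69 changed sign, in 19 of 38 results whose size was at most 0.21. The leading members at 24 h were picked for their values in these data, so a kept sign is not separate support for them. RT1-Ba also passed the filter only through METH at 24 h. Their 24 h changes kept their sign in every setting that gave a value. RT1-Ba, RT1-CE15 and RT1-DOa have none with detection on at least 12 arrays. The changes of the leading members were Cd74 0.57 to 1.20, RT1-Da 0.56 to 1.03, RT1-Ba 0.18 to 1.34, B2m 0.35 to 0.37 and RT1-M10-1 0.28 to 0.64. With 1 array left out they ran over 0.63 to 1.05, 0.57 to 1.00, 0.24 to 0.44, 0.24 to 0.46 and 0.30 to 0.55, lowest without METH replicate 2 in each. The adjusted p ranged from 0.245 to 1 for Cd74 and from 0.0609 to 0.558 for RT1-M3-1 at 2 h. The class I median at 2 h, -0.07, ran from -0.14 to 0.00 and the class II median from -0.02 to 0.10 with 1 array left out.

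Counts over all probes at 2 h (7) were 1 with separate fits, 3 with median scaling, 2 with the deposited log2 values, 3 without a filter, 2 with array weights and 3 to 17 with 1 array left out. Without saline replicate 4 and METH replicate 6 of slide 1, chosen after seeing the data for their low weights, it was 29. At 24 h (5) they were 8 with separate fits, 0 with the deposited values and 3 without a filter. For 24 h minus 2 h (0) they were 4 with array weights and 0 to 4 with 1 array left out, and for slide 3 minus slide 2 (0) 0 to 1. The causes were not tested.

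Median scaling and the deposited values moved the median of all probes at 2 h to 0.15 and 0.20, and the class II median at 2 h was 0.29 with the deposited values. Signs turned at 2 h with median scaling for RT1-DMb (0.20), RT1-T24-4 (0.0073), B2m (0.23) and RT1-M6-2 (0.059), and with deposited values for RT1-DMb (0.21), RT1-T24-4 (0.0578), RT1-DOa (0.0662), B2m (0.23) and RT1-M6-2 (0.0539). At 24 h they turned with median scaling for RT1-DMb (-0.0037), RT1-DMa (-0.0244) and RT1-M3-1 (-0.0159), and with deposited values for RT1-CE15 (0.44) and RT1-DMa (-0.0096). At 2 h, Tap1 was -9e-04 with an offset of 50, RT1-S3 was -0.0443 with weights and -0.16 without both arrays of low weight, and Cd74 was -0.0242 without those. The share of higher probes among those with unadjusted p under 0.05 at 24 h was 56.2%, against 51% with median scaling and 64% with the deposited values.

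With 1 array left out, signs turned at 2 h for B2m (-0.0868 to 0.0803), RT1-A2 (-0.39 to 0.23), RT1-DMa (-0.0247 to 0.14), RT1-DMb (-0.0987 to 0.0598), RT1-DOa (-0.11 to 0.0094), RT1-M10-1 (-0.17 to 0.0574), RT1-M6-2 (-0.17 to 0.0317), RT1-S3 (-0.09 to 0.11), RT1-T24-4 (-0.0823 to 0.0977) and Tap1 (-0.0484 to 0.0711). At 24 h they turned for RT1-CE15 (-0.20 to 0.22), RT1-DMa (-0.0738 to 0.0564), RT1-DMb (-0.0199 to 0.0809), RT1-Db1 (-0.0254 to 0.16), RT1-M3-1 (-0.0321 to 0.0439), RT1-M6-2 (-0.0321 to 0.29), RT1-T24-4 (-0.0081 to 0.35) and Tap1 (-0.0145 to 0.16). Medians at 24 h over the 16 members detected on at least 6 arrays other than METH at 24 h, added after seeing the data, were 0.10 for class II and 0.18 for class I. No paired analysis was possible because the labels give no replicate numbers, and those used here only name arrays.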
